A study of Rattus norvegicus with 8 samples.

Results

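Schwann cell and myelin genes were followed in the rat Achilles tendon as a group of 8 genes, *Mbp*, *Pmp22*, *Prx*, *Mag*, *Sox10*, *Ngfr*, *S100b* and *Egfl8*, taken by gene symbol from the 32883 genes of the count table. All 8 were found, and their reads together made up 0.0860 to 0.136% of the reads counted in each rat. The tendons came from 8 male wild-type (WT) Sprague-Dawley (SD) rats aged 8 to 10 weeks. In 4 of them (12 h p.r.), the right Achilles tendon was taken 12 hours after a single 1-hour uphill treadmill run, and in the other 4 (NC, naïve control) it was taken at the same time after rest in the cage. Whole tendon was used for polyadenylate RNA, so RNA of the tendon's own cells, of its nerves, vessels and fat, and of neighboring muscle was read together. The labels number the rats 1 to 4 in each group and give no further detail of them. The p-values weigh a group difference against the spread between these rats, differences in tissue makeup included. In the edgeR fit that spread is estimated in part across genes.

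Schwann cells are the glia of peripheral nerves. Myelinating Schwann cells wrap single large axons in a sheath of lipid and of proteins such as myelin basic protein, and nonmyelinating Schwann cells ensheathe bundles of thin axons. Tendons receive sensory and sympathetic fibers, mostly in the sheath and loose tissue around the fibrils, and the cells of the nerves are a small share of the tissue. In bulk RNA, fewer cells of a type and less RNA per cell cannot be told apart.

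SOX10 is the transcription factor that keeps cells in the Schwann cell lineage, and it acts on many myelin genes. The promoters of myelin protein genes are therefore printed here as the sequences just before the annotated starts, and the letters of the SOX-type motif, ACAAAG or ACAATG on either strand, were searched for in the 250 bases before each start. The sequences are RefSeq's, of build GRCr8, with a match in capitals.
*Pmp22* promoter, GRCr8 chr10:48294682-48294931, plus strand: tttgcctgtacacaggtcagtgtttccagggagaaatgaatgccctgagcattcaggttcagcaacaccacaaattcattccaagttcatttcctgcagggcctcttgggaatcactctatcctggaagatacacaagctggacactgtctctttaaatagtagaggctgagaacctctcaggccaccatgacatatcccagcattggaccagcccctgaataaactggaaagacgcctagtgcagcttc
*Prx* promoter, GRCr8 chr1:91914171-91914420, plus strand: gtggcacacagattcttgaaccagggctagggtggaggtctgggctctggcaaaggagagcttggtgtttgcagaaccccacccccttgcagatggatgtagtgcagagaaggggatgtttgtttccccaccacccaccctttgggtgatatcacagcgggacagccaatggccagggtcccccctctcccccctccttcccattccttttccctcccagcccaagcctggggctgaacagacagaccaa
*Mag* promoter, GRCr8 chr1:95291045-95291294, minus strand: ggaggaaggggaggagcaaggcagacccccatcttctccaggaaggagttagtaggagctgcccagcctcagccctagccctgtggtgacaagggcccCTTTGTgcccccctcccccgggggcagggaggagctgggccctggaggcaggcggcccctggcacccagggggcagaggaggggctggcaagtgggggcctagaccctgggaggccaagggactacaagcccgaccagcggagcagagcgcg
The *Mag* promoter held 1 match, CTTTGT, the reverse complement of ACAAAG, with its first base at position -152 from the start, and the *Egfl8* promoter held 1 match, at position -92. The printed *Pmp22* and *Prx* promoters held none. A motif this short recurs often, and 25.3% of the 33465 promoters of this length held a match. Of the 6 members with a promoter entry, 3 held one in at least 1 entry. A match is a description of letters only.

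The reads counted on genes totaled 7350509 to 10648648 in the 12 h p.r. rats and 8385779 to 12951397 in the NC rats. Some rats stood apart by their tissue makeup. The 12 h p.r. rat 3 had 15730 CPM (read counts scaled to the library size by TMM factors and given per 1e6 reads) of the skeletal muscle actin *Acta1*, against 712 to 2823 CPM in the other 7 rats. The cartilage collagen *Col2a1* was at 594 CPM in NC rat 3 and at 167 CPM in 12 h p.r. rat 1, and at no more than 10.8 CPM in the others. Values without these 3 rats are therefore given where they bear on a member. Across 13937 genes tested with edgeR's quasi-likelihood test, 1 gene (0.00718%) passed a Benjamini-Hochberg adjusted p under 0.05.

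The members spanned a wide range of levels, compared here per gene length as the deposited FPKM over all 8 rats. *S100b* was highest at 319 ± 82.1 (SD, n = 8), and *Pmp22* followed at 219 ± 47.1. Their ranges overlapped, from 194 to 419 and from 157 to 300 FPKM, and *S100b* was the higher of the pair in 7 of the 8 rats. *Mbp* stood at 21.1 ± 6.18 FPKM and *Egfl8* at 15.8 ± 2.55, again with overlapping ranges and *Mbp* above *Egfl8* in 7 rats. *Prx* was at 8.62 ± 1.59 FPKM, below *Egfl8* in all 8 rats. *Ngfr*, at 2.12 ± 0.581 FPKM, and *Sox10*, at 1.62 ± 0.447, had overlapping ranges, with *Ngfr* the higher in 7 rats. Both stood above *Mag*, at 0.435 ± 0.256, in all 8 rats. The RNA of *Sox10* and of *Mag* was thus far lower per length than the RNA of *S100b* and of *Pmp22*.

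**Figure D1:**
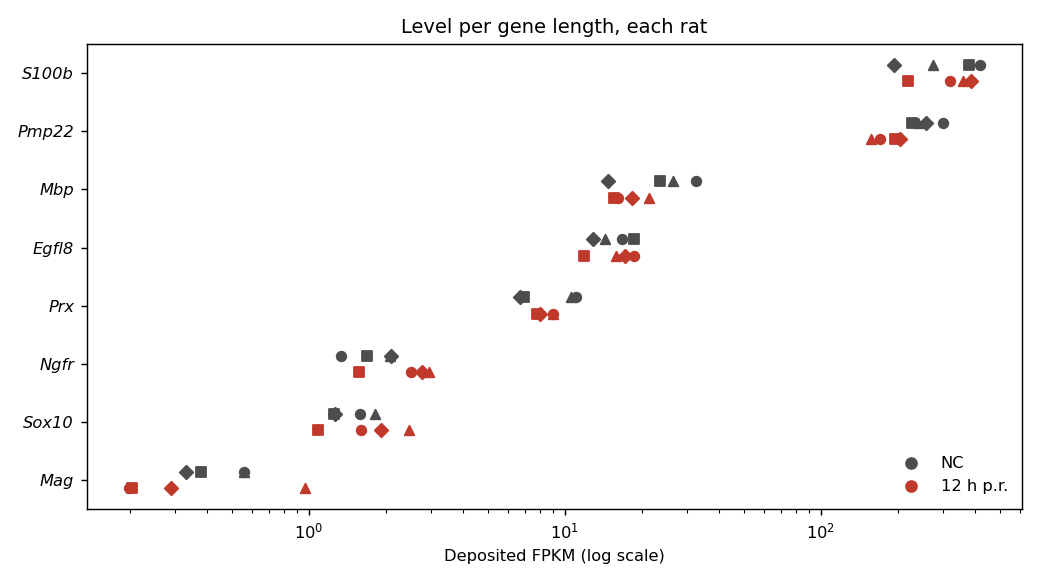
Deposited FPKM of each member on a log axis, 1 point per rat with the replicate given by its shape, NC in gray and 12 h p.r. in red. *S100b* and *Pmp22* lie above 150 FPKM and *Mag* lies below 1 FPKM in every rat.

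None of the 7 members tested passed an adjusted p under 0.05 in edgeR's quasi-likelihood test, and 1 of them, *Pmp22*, had an unadjusted p under 0.05, against 9.51% of all genes tested (4.08% lower and 5.44% higher after the run). *Pmp22* was also the only one of the 8 members whose groups did not overlap, against 6.06% of all genes tested (2.55% lower and 3.52% higher). The 7 members tested had a median log2 fold change of 0.03, with 4 above and 3 below 0, and the median of all 13937 genes was 0.02. The eighth member, *Mag*, had too few reads for the filter on low counts. With the Wald test of DESeq2, 1 of the 8 members (*Pmp22*) passed an adjusted p under 0.05, against 0.685% of the genes with such a value, and 1 had an unadjusted p under 0.05, against 6.5%.

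**Figure D2:**
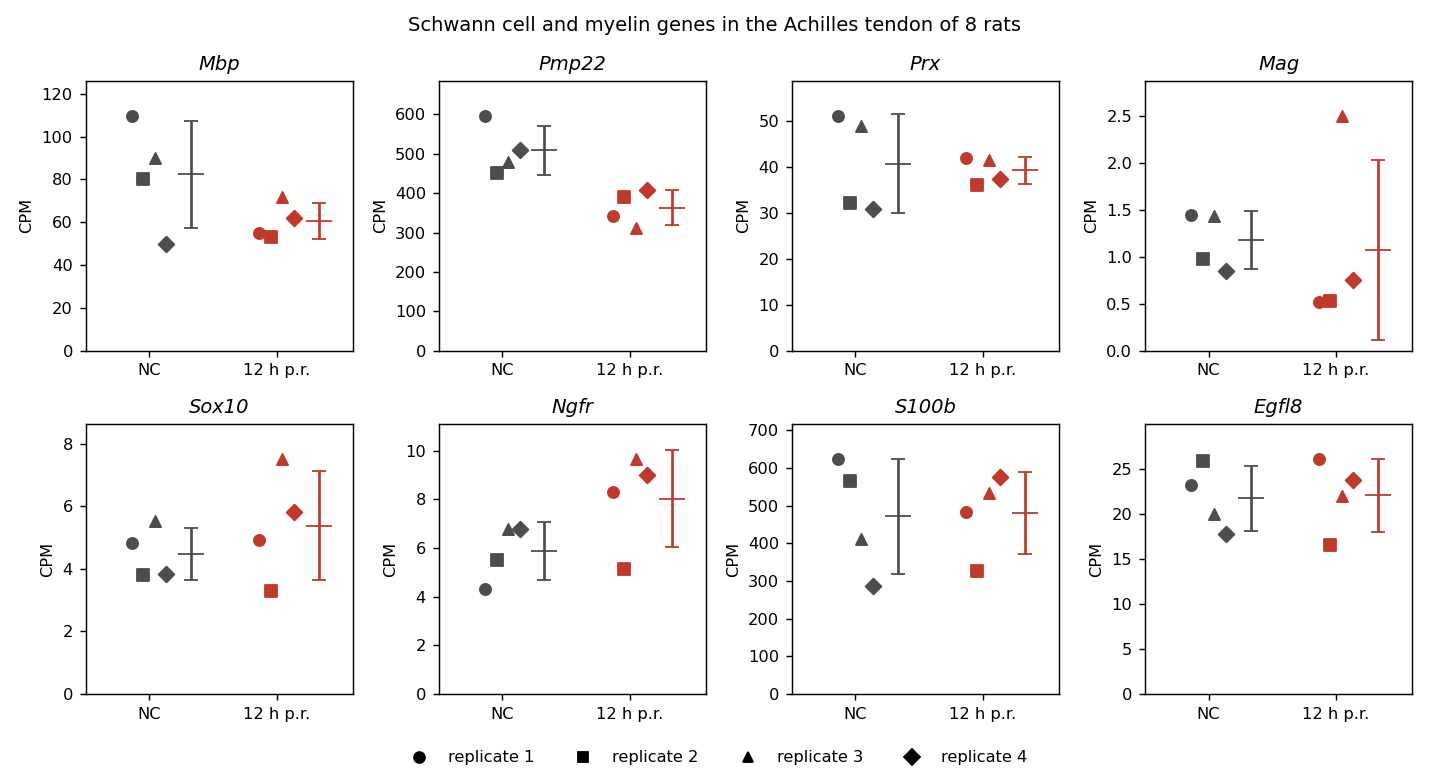
CPM of each member in each rat, with group mean and SD beside the points (n = 4 per group) and a linear axis from 0 in each panel. The groups overlap for 7 members, and for *Pmp22* the 12 h p.r. rats, at 312 to 408 CPM, lie below the NC rats, at 452 to 595 CPM.

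*Mbp* encodes myelin basic protein, which holds the inner faces of the myelin membrane together. It was at 55.1, 53.0, 72.0 and 61.9 CPM in the 12 h p.r. rats 1 to 4 and at 109, 79.96, 89.8 and 49.96 CPM in the NC rats 1 to 4. NC rat 4 lay below every 12 h p.r. rat, and the other 3 NC rats lay above all of them. The means were 60.5 ± 8.56 and 82.3 ± 24.8 CPM (SD, n = 4 each), a log2 fold change of -0.44 with a standard error of 0.22 (95% interval -0.93 to 0.05). This difference missed the threshold in edgeR's test (adjusted p = 0.559) and in a 2-sided exact permutation test over the 70 splits of the rats (p = 0.171), whose smallest possible p is 0.0286. Without NC rat 4 the log2 fold change was -0.62, with an unadjusted p of 0.00288 and an adjusted p of 0.748 in edgeR, and without NC rat 1 it was -0.28.

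*Pmp22* encodes peripheral myelin protein 22, a membrane protein of compact myelin that fibroblasts and other cells also make, and whose gene dosage matters in inherited neuropathy. It was at 342, 391, 312 and 408 CPM in the 12 h p.r. rats and at 595, 452, 478 and 510 CPM in the NC rats. The groups did not overlap, with all 4 running rats below the lowest NC rat. The mean was 363 ± 44.4 CPM after the run and 509 ± 62.3 CPM in the NC rats, a fold of 0.713 (95% interval 0.575 to 0.884) and a log2 fold change of -0.49 with a standard error of 0.14. The unadjusted p was 0.00612 and the adjusted p was 0.432 in edgeR's test, so the difference did not pass over all genes, while DESeq2 gave an adjusted p of 0.0434. The exact permutation test gave p = 0.0286, the smallest value that 4 against 4 rats can give. Leaving out 1 rat at a time kept the log2 fold change between -0.55 and -0.40. Leaving out the muscle-rich rat and both cartilage-rich rats together gave -0.38, with an unadjusted p of 0.0590.

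*Prx* encodes periaxin, a cytoskeletal protein of myelinating Schwann cells that links the sheath to its surrounding matrix. It was at 42.1, 36.2, 41.7 and 37.4 CPM in the 12 h p.r. rats and at 51.1, 32.1, 49.1 and 30.8 CPM in the NC rats. The NC rats fell on both sides of the 12 h p.r. rats, which lay close together. The means were 39.3 ± 2.96 and 40.8 ± 10.8 CPM, a log2 fold change of -0.06 (95% interval -0.45 to 0.34, adjusted p = 0.940 in edgeR).

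*Mag* encodes myelin-associated glycoprotein, which sits on the innermost myelin membrane facing the axon. Its counts were 4, 4, 21 and 8 reads in the 12 h p.r. rats and 18, 8, 19 and 10 reads in the NC rats. The 21 reads of the muscle-rich 12 h p.r. rat 3 were the most of all, and the other 3 running rats had no more reads than any NC rat. Counting error alone is wide here, since 4 reads have an exact Poisson 95% interval of 1.09 to 10.2 and 21 reads one of 13.0 to 32.1. On the CPM scale, the means were 1.07 ± 0.956 CPM after the run and 1.18 ± 0.307 CPM in the NC rats, with p = 0.571 in the exact permutation test. A fit with no filter on low counts gave a log2 fold change of -0.14 with a standard error of 0.54, with an adjusted p of 0.953 (edgeR). When 12 h p.r. rat 3 was left out, *Mag* passed the filter and had a log2 fold change of -0.95 with a standard error of 0.39, an unadjusted p of 0.0383 and an adjusted p of 0.432 (edgeR), and without any other single running rat it was between 0.01 and 0.08. The sign for *Mag* was thus negative with all rats and without 12 h p.r. rat 3, and positive without any other single running rat. Its direction was not set, and no difference was shown.

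*Sox10*, the lineage factor, was at 4.92, 3.29, 7.497 and 5.82 CPM in the 12 h p.r. rats and at 4.81, 3.80, 5.51 and 3.82 CPM in the NC rats. The lowest and the highest of all 8 values were both in running rats. The log2 fold change was 0.26 with a standard error of 0.27 (95% interval -0.34 to 0.86, adjusted p = 0.783 in edgeR). It rested largely on the muscle-rich 12 h p.r. rat 3, since it was 0.06 without that rat and 0.43 without 12 h p.r. rat 2. The part of the muscle RNA in this value was not tested.

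*Ngfr* encodes the p75 neurotrophin receptor, which binds neurotrophins and is kept on nonmyelinating and injured Schwann cells. It was at 8.28, 5.14, 9.64 and 9.01 CPM in the 12 h p.r. rats and at 4.33, 5.52, 6.80 and 6.80 CPM in the NC rats. All running rats but rat 2 were above all NC rats. The means were 8.02 ± 2.00 and 5.86 ± 1.19 CPM, a log2 fold change of 0.45 with a standard error of 0.24 (95% interval -0.09 to 0.99). This missed the threshold in edgeR's test (adjusted p = 0.581) and in the exact permutation test (p = 0.143). The direction held without each rat in turn, from 0.33 to 0.61.

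*S100b* encodes a calcium-binding protein used as a marker of Schwann cells that fat cells and cartilage cells also make. It was at 483, 327, 534 and 575 CPM in the 12 h p.r. rats and at 623, 564, 410 and 288 CPM in the NC rats. The groups covered nearly the same range, and the highest NC rat had 2.16 times the level of the lowest. The log2 fold change was 0.03 with a standard error of 0.26 (95% interval -0.57 to 0.62, adjusted p = 0.985 in edgeR). *Egfl8*, which encodes a secreted protein with epidermal growth factor-like repeats, was at 26.0, 16.5, 21.9 and 23.8 CPM in the 12 h p.r. rats and at 23.2, 25.9, 19.9 and 17.8 CPM in the NC rats. Its groups overlapped almost fully, with a log2 fold change of 0.03 and a standard error of 0.17 (95% interval -0.35 to 0.41, adjusted p = 0.975 in edgeR). The signs of the *S100b*, *Egfl8* and *Prx* differences changed when single rats were left out, and without the muscle-rich and cartilage-rich rats *S100b* was at -0.12 and *Egfl8* at -0.14. In the RefSeq gene table the span of *S100b* overlaps *Dip2a* and that of *Egfl8* overlaps *Agpat1*, those of *Pmp22*, *Mbp* and *Mag* overlap long noncoding RNA genes, that of *Prx* overlaps a pseudogene, and how reads in such overlaps were counted is not given in the sources used here.

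**Figure D3:**
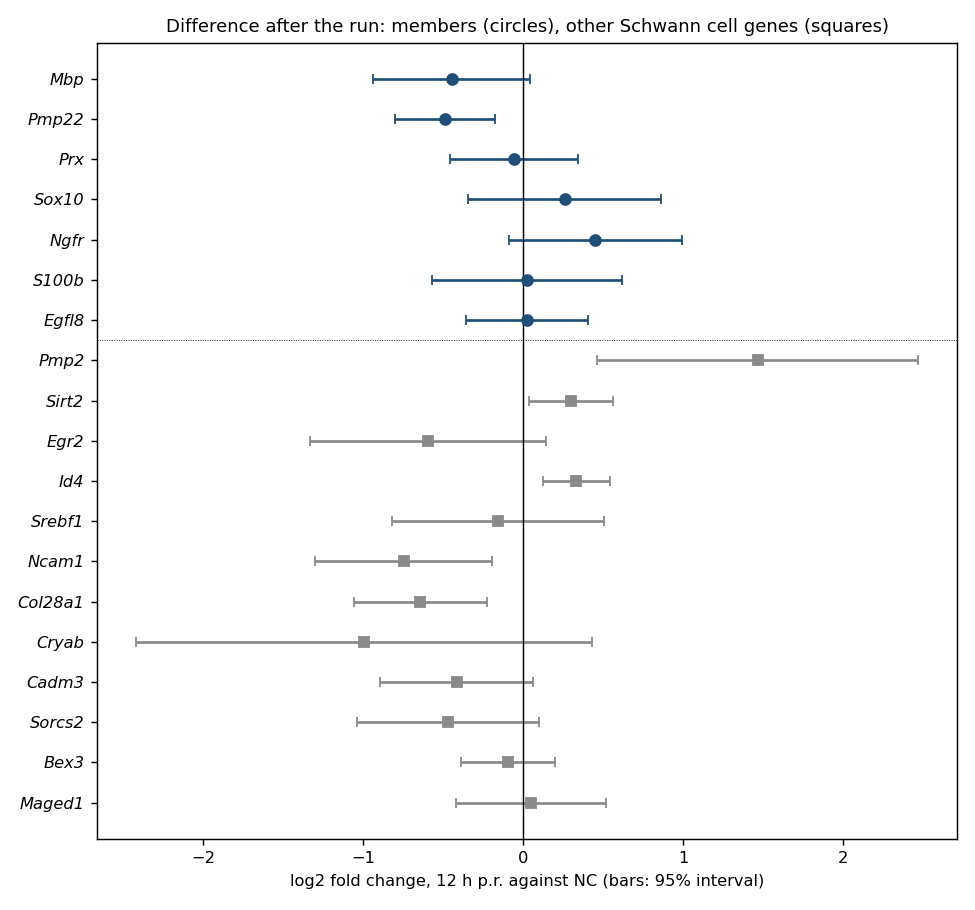
Log2 fold change, 12 h p.r. against NC, with its 95% interval (edgeR) for the 7 members tested (circles) and for genes named from the myelin, transcription factor, surface and neurotrophin lists (squares). The interval of *Pmp22*, from -0.80 to -0.18, is the only one of a member that does not hold 0.

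Other genes of peripheral myelin were read from a list of 21, of which 19 were tested besides the members. None had an adjusted p under 0.05 in edgeR's test, and the median log2 fold change was -0.11. At an unadjusted p under 0.05 there were 2 higher and 2 lower (21.05% of the 19), against 9.51% of all genes tested. The sets differ in size, and the difference between these shares was not tested. The sign of the list's median was not set, since it was -0.22 without NC rat 4 and 0.06 without NC rat 1. *Drp2*, whose product joins periaxin at the sheath's surface, was at 8.80, 8.70, 11.5 and 9.20 CPM in the 12 h p.r. rats and at 20.8, 14.2, 18.0 and 8.33 CPM in the NC rats. As for *Mbp*, NC rat 4 was the lowest of all and the other NC rats were the highest, with means of 9.56 ± 1.34 and 15.3 ± 5.38 CPM (log2 fold change -0.68, unadjusted p = 0.0286 in edgeR). The lipid carrier *Pmp2* was at 3.78 ± 0.811 CPM after the run and 1.32 ± 0.762 CPM in the NC rats (log2 fold change 1.47, SE 0.44, adjusted p = 0.433 in edgeR). Its groups did not overlap, which held for 6.06% of all genes tested. *Pmp2* had only 194 reads over the 8 rats, with NC rat 2 at 0.245 CPM. *Sirt2*, a deacetylase found in myelin and in many other cells, had a log2 fold change of 0.30 with an unadjusted p of 0.0289 in edgeR. *Drp2* was named after its values were seen.

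The lists of regulators and of surface proteins of Schwann cells each had 12.5% of their tested genes at an unadjusted p under 0.05 in edgeR. The share of all genes tested was 9.51%. Of 12 transcription factors listed, 8 were tested and 1 had an unadjusted p under 0.05 in edgeR, *Id4*, an inhibitor of basic helix-loop-helix factors. It was at 45.8 ± 4.77 CPM after the run and 36.4 ± 1.25 CPM in the NC rats (log2 fold change 0.33, adjusted p = 0.432 in edgeR). Its groups did not overlap, which held for 6.06% of all genes tested. *Egr2*, the factor that switches on myelination, was at 4.75 ± 1.98 against 7.11 ± 1.88 CPM (log2 fold change -0.59, adjusted p = 0.597 in edgeR), and *Srebf1*, a regulator of lipid synthesis, was at -0.16 (adjusted p = 0.895). Of 29 surface and precursor genes, 24 were tested, with 1 higher and 2 lower at an unadjusted p under 0.05 and a median log2 fold change of -0.17. The higher one was *Dhh*, at 11.3 ± 1.52 against 8.25 ± 1.17 CPM (log2 fold change 0.45, adjusted p = 0.455 in edgeR), named after its values were seen. The lower ones were the adhesion molecule *Ncam1*, at 5.13 ± 1.23 against 8.61 ± 1.99 CPM (log2 fold change -0.75, adjusted p = 0.433 in edgeR), and the collagen *Col28a1*, found around nonmyelinating glia, at 14.1 ± 2.72 against 22.0 ± 4.38 CPM (log2 fold change -0.64, adjusted p = 0.432). *Cryab* and *Cadm3*, the list's most abundant genes per length, had log2 fold changes of -0.99 and -0.41 (adjusted p = 0.652 and 0.576 in edgeR).

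The ligands and partners of the *Ngfr* product were 15 genes, 12 of them tested, with 1 at an unadjusted p under 0.05 and a median of -0.06. *Sorcs2*, a coreceptor, was at -0.47 (adjusted p = 0.586), and *Bex3* and *Maged1*, which bind the receptor inside the cell, were at -0.09 and 0.05 (adjusted p = 0.849 and 0.953 in edgeR). Of the neuregulin, laminin and dystroglycan genes, which carry axon and matrix signals to the sheath, 19 of 21 were tested, 0 had an unadjusted p under 0.05 in edgeR, and the median was 0.03. *Lamb2*, *Itgb1*, *Lama2* and *Itgb4* were at 0.03, -0.10, -0.25 and 0.20 on the log2 scale, with adjusted p values from 0.625 to 0.957. Of 16 genes that Schwann cells use after nerve injury, 6 were tested, 0 had an unadjusted p under 0.05 in edgeR, and the median was -0.47, or -0.14 without NC rat 3. Among them *Jun* was at -0.19, *Atf3* at -0.52 and *Btc* at -0.74 (adjusted p = 0.744, 0.547 and 0.540 in edgeR).

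Over these 6 Schwann cell lists, 86 genes besides the members were tested, 9 of them (10.5%) had an unadjusted p under 0.05 in edgeR, 5 higher and 4 lower, and 0 had an adjusted p under 0.05. The share of all genes tested was 9.51%. The median log2 fold change was -0.08, against 0.02 for all genes tested.

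The other cells that could carry the members' reads were read from lists as well. Of 10 oligodendrocyte genes, 3 were tested, and *Olig2* and *Opalin* had no reads in any rat, while *Cldn11* was at -0.09 and *Mog* at 0.43 on the log2 scale. Of 9 melanocyte genes, 3 were tested, and *Tyr* and *Slc45a2* had no reads, while *Mitf* was at 0.02 and *Pmel* at 0.12. Of 16 axon and neuron genes, 5 were tested, with a median log2 fold change of -0.02, 2 above and 3 below 0. *Stmn2*, a growth-associated protein of neurons, had a log2 fold change of -2.28 (unadjusted p = 0.0267, adjusted p = 0.477 in edgeR). Its mean was 3.12 ± 1.70 against 15.1 ± 17.6 CPM. NC rat 4 was at 40.9 CPM, while NC rat 2, at 1.35 CPM, lay within the running rats' range of 1.035 to 4.87 CPM. *Prph*, an intermediate filament of peripheral neurons, was at 0.30 (adjusted p = 0.627). Of 10 genes of the perineurium, the sheath around nerve bundles, 7 were tested. Their median log2 fold change was -0.11, with 3 above and 4 below 0. Of the 7, 2 (28.6%) had an unadjusted p under 0.05 in edgeR, against 9.51% of all genes tested. These were *Cldn1* at -0.84 and *Tenm2* at -1.10 (unadjusted p = 0.0120 and 0.0100, adjusted p = 0.433 for both in edgeR). *Tjp1* was at -0.11 and *Itgb4* at 0.20. The share at an unadjusted p under 0.05 in edgeR was nearly as high, 27.3%, in both the tenocyte and the endothelial list. It was 8.33% in the adipocyte list and 0% in the chondrocyte, leukocyte and skeletal muscle lists.

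Among the tendon's other tissues, the summed level of 12 adipocyte genes, all of them tested, was 5185 to 13950 CPM after the run and 7112 to 12660 CPM in the NC rats. The summed level of the 10 skeletal muscle genes in the table, of 12 listed, was 2313 to 62220 CPM after the run and 2087 to 11560 CPM in the NC rats, and their median log2 fold change over 10 tested was 1.49, with 9 above 0. This rested on the muscle-rich 12 h p.r. rat 3, and without it the median was -1.21 and all 10 were below 0. The lists of chondrocyte (9 of 13 tested), endothelial (11 of 12), leukocyte (10 of 12) and tenocyte genes (11 of 11) had median log2 fold changes of -0.15, 0.09, -0.35 and 0.29. Leaving out 1 rat moved the chondrocyte median from -0.48 to 0.36, the tenocyte median from -0.06 to 0.56, the leukocyte median from -0.63 to -0.16 and the endothelial median from 0.06 to 0.14, and the adipocyte median, -0.02 with all rats, from -0.29 to 0.14. On the log2 scale the adipocyte genes *Fabp4*, *Car3*, *Lep* and *Adrb3* were at -0.06, 0.04, -0.69 and 1.49, and with all rats the muscle genes *Acta1*, *Mylpf*, *Ckm* and *Myh7* were at 1.38, 1.41, 2.04 and -1.77. The chondrocyte genes *Comp* and *Col11a2* were at 0.60 and -0.40, and the tenocyte genes *Dcn*, *Col1a1*, *Scx* and *Mkx* at 0.29, -0.11, 0.62 and 0.78. The endothelial genes *Emcn*, *Cldn5*, *Egfl7* and *Tie1* were at -0.40, 0.37, 0.40 and 0.31, and the leukocyte genes *Lyz2*, *Cd14*, *Cd163* and *Fcgr3a* at -0.87, 0.17, -0.83 and -1.24. None of the genes on these lists had an adjusted p under 0.05 in edgeR. The part of each tissue's share in the members' values was not tested.

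How far the members rose and fell together from rat to rat was described with Pearson's r of log2 CPM over the 8 rats, which share the study's conditions and differ in depth and tissue makeup. Among the 7 members tested, *S100b* and *Egfl8* were the closest pair (r = 0.85), followed by *Ngfr* and *Sox10* (r = 0.69), *Mbp* and *Prx* (r = 0.68) and *Mbp* and *S100b* (r = 0.64). *Pmp22* stood apart, with r = 0.48 to *Mbp*, 0.12 to *Prx*, -0.05 to *S100b* and -0.72 to *Ngfr*. As deviations from the group means, its r was 0.07 with *Mbp* and -0.54 with *Ngfr*, and without NC rat 1 and 12 h p.r. rat 3, the farthest from its median, r with *Ngfr* was -0.27. Without the 2 rats farthest from the median of *Egfl8*, its r with *S100b* was 0.48, and without those farthest for *Mbp*, the r of *Mbp* with *Prx* was 0.07.

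**Figure D4:**
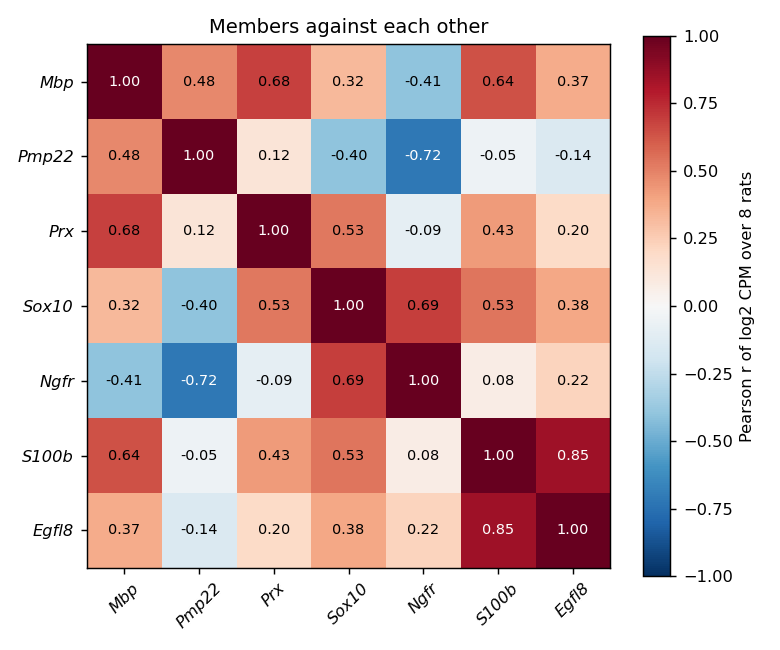
Pearson's r of log2 CPM over 8 rats for each pair of the 7 members tested, from blue (negative) to red (positive). The highest value is 0.85 for *S100b* and *Egfl8*, and the lowest is -0.72 for *Pmp22* and *Ngfr*.

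Over all 8 rats, *Mbp* was accompanied by other myelin genes. Of the 10 genes with the highest r to *Mbp* among 13866 genes, 4 were on the Schwann cell lists, among them *Drp2* (r = 0.98) and *Ugt8* (r = 0.92), which makes the myelin lipid galactosylceramide. Taken as deviations from each group's mean, the values for *Drp2* and *Ugt8* were 0.99 and 0.90. Without the 2 rats farthest from the median of *Mbp*, NC rats 1 and 3, they were 0.96 and 0.82. The ranks of *Drp2* and *Ugt8* were 1 and 6 over all rats, and 8 and 267 without these 2 rats. The place of *Ugt8* among the 10 closest genes thus rested on those 2 NC rats. Each of the other 6 members had 0 Schwann cell list genes among its 10 closest, and this count for single members was added after their values had been seen. With the mean log2 CPM of the 19 other peripheral myelin genes, r was 0.84 for *Mbp*, 0.80 for *Prx*, 0.70 for *S100b*, 0.46 for *Sox10*, 0.30 for *Egfl8*, 0.13 for *Pmp22* and -0.26 for *Ngfr*. *S100b* and *Egfl8* had r = 0.71 and 0.78 with the mean of the adipocyte genes, *Sox10* had 0.73 with that of the muscle genes, and *Pmp22* had 0.72 with that of the perineurial genes, 0.71 with the leukocyte genes and 0.71 with the axon and neuron genes. The tissue values named here are among the highest r of the 7 members tested with the 16 lists. Values below 0 of like size were found too, such as -0.73 for *Sox10* with the melanocyte genes and -0.69 for *Egfl8* with the axon and neuron genes. All are single values over 8 rats, given as description, and which cells made the members' RNA was not tested.

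The CPM of *Drp2* divided by that of *Mbp* varied little between rats, 0.149 to 0.164 after the run and 0.167 to 0.200 in the NC rats without overlap, so that its highest value was 1.35 times its lowest. *Egfl8* over *S100b* varied 1.66 times and *Pmp22* over *Mbp* 2.36 times, the last being 4.33 to 7.38 after the run and 5.33 to 10.2 in the NC rats. *Mbp* over *Sox10* was 9.60 to 16.1 after the run and 13.1 to 22.8 in the NC rats, with overlap. These ratios of 2 genes' counts compare rats, not levels between genes, and were chosen after the values were seen. *Drp2* had the highest r to *Mbp* of all genes ranked, so its steady ratio to *Mbp* follows in part from that choice. How often the ratios of other gene pairs separate the groups was not computed.

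**Figure D5:**
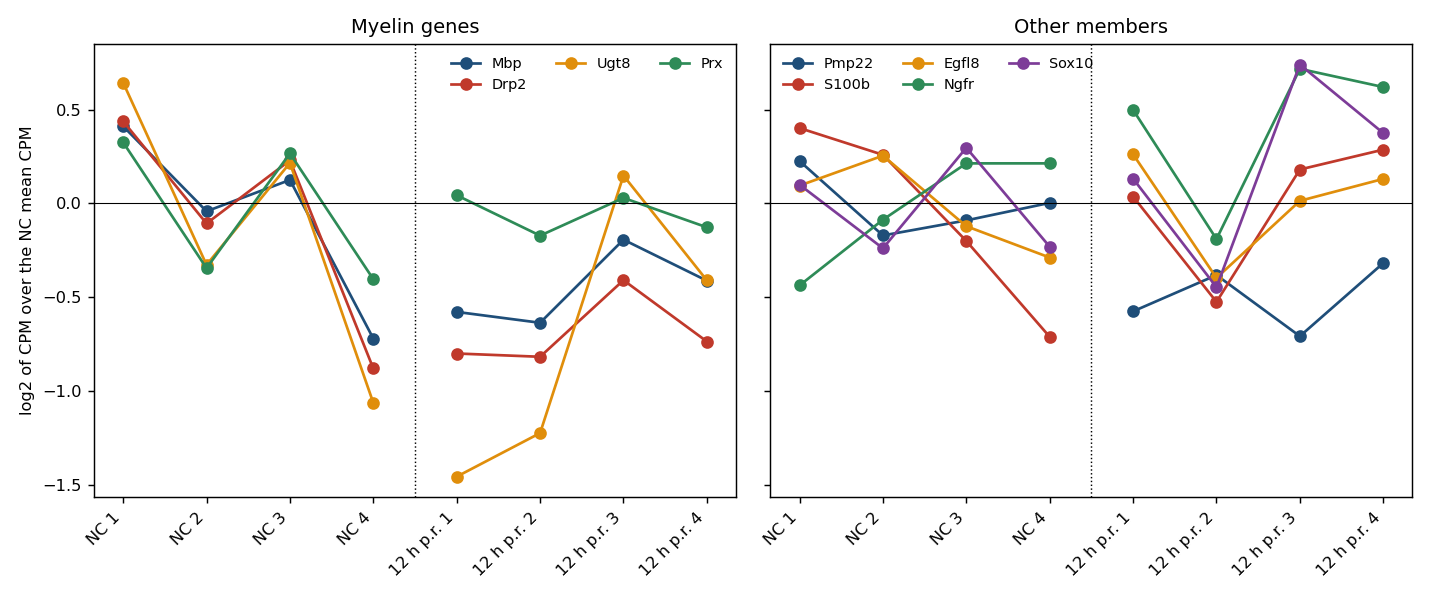
Log2 of each rat's CPM over the NC mean CPM of the same gene, for *Mbp*, *Prx* and the myelin genes *Drp2* and *Ugt8* (left) and for the other 5 members tested (right). Lines only join the values of 1 gene within a group. *Mbp* and *Drp2* share their low value in NC rat 4, while *Pmp22* is near the NC mean in that rat.

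The genes most like the members as a whole were sought by r with the mean log2 CPM of the 7 members tested, over 13860 other genes. Among the 10 highest were *Prkci* (r = 0.95), *Slco2b1*, *Tubb4b*, *Greb1*, *RGD1597339*, *LOC100912537*, *Ahcy*, *Csad* and *Cbr3* (r = 0.92). None of these 10 was on the 6 Schwann cell lists, which hold 0.62% of the genes ranked. The order was not stable, since between 0 and 6 of the 10 stayed among the top 10 when 1 rat was left out. The mean itself was lowest in 12 h p.r. rat 2 (log2 CPM of 5.17) and NC rat 4 (5.25) and highest in NC rat 1 (5.72), so each group held both low and high rats.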

How the data were processed

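Polyadenylate RNA of the right Achilles tendon was sequenced from 4 12 h p.r. and 4 NC rats as stranded libraries, 1 per rat. Per the submitters' notes and methods, HISAT2 2.1.0 aligned the reads to Rnor_6.0 and featureCounts 1.6.3 counted reads on Ensembl genes, and the authors deposited raw counts. Whether counting used the strand, and how reads matching several genes were treated, is not given in the sources used here. The deposited FPKM are counts over gene length and 1 factor per rat, and these factors equaled median-of-ratios size factors computed from the counts. The authors' DESeq2 1.30.1 comparison (fold changes and p-values) was not used.

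Genes with low counts were removed with filterByExpr, and 13937 genes were tested with edgeR 4.0.16 (TMM factors, glmQLFit and glmQLFTest, all 8 rats, no covariates, Benjamini-Hochberg adjustment). Standard errors came from the F statistic. Exact 2-sided permutation tests used log2(CPM + 0.5), and correlations used log2 CPM with a prior count of 2. The test was checked on simulated counts. Alternatives were DESeq2 1.42.0, other factors and filters, limma 3.58.1 on log2(FPKM + 1) and log2(FPKM + 0.1), the replicate number as a block, and leaving out rats. R 4.3.3 and Python 3.11.15 were used. At a depth of 7350509 to 12951397 reads, genes near 1 CPM rest on few reads, and Poisson intervals cover counting error only. No 2 libraries agreed within sampling noise.

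The members and the 16 marker lists were chosen with earlier results of these data known. Of each list, the text names every gene with an adjusted p under 0.05, the 2 highest by mean FPKM and the 2 with the smallest unadjusted p, and, of all other genes, the 10 most like the members' mean. Some genes that this rule picks are not reported here. Any other gene was named after its values were seen.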

Additional observations from a re-analysis of the deposited data

Results flagged for a closer look

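Among 48 sets of 4 rats searched, each a gene or list mean within 1 group, 2 had a single rat far from the others by Dixon's test at the 95% level, where chance gives about 2.4. The mean log2 CPM of the endothelial genes was highest in NC rat 4, at 6.99, with the nearest NC rat at 6.88. The mean log2 CPM of the leukocyte genes was lowest in NC rat 2, at 4.54, with the nearest NC rat at 5.77. No member had such a rat in either group.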

How the results depend on the processing

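The number of members past an adjusted p under 0.05 was 0 in edgeR with every factor, filter, block and left-out rat tried and in limma, and 1 with DESeq2, whose *Pmp22* value was -0.49 on the log2 scale (adjusted p = 0.0434). The number at an unadjusted p under 0.05 ran from 1 to 3 with 1 rat left out, 3 of them without 12 h p.r. rat 3 and 2 without 12 h p.r. rat 2 or NC rat 4, and was 0 when the muscle-rich and the cartilage-rich rats were left out together, a choice made after seeing the data that leaves 5 rats. In that fit *S100b* turned to -0.12 and *Egfl8* to -0.14. With 1 rat left out, the log2 fold change of *S100b* ran from -0.15 to 0.19, that of *Prx* from -0.17 to 0.072 and that of *Egfl8* from -0.063 to 0.14, so their directions were not set. Of the 10 genes most like the members' mean, 0 to 6 remained in the top 10 with 1 rat left out and 2 when deviations from the group means were used. *Mag*, which the filter on low counts removes, was at -0.14 with no filter and at 0.08, 0.07 and 0.01 in the filtered fits without 12 h p.r. rat 1, 2 or 4. For *Mbp*, *Pmp22*, *Ngfr* and *Sox10*, every alternative kept the direction, and DESeq2 for *Pmp22* was the only one to change the side of the adjusted threshold. The cause of these changes was not tested.

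The replicate numbers were not taken as pairs, since the deviations of same-numbered rats correlated at 0.07, -0.19, 0.12 and 0.08, and 1 of 4 running rats correlated best with its own number. With the replicate number as a block, 0 genes passed an adjusted p under 0.05 in edgeR against 1 without it, 974 genes had an unadjusted p under 0.05 against 1326, and *Pmp22* was at -0.49 (unadjusted p = 0.0220). The block changed no member's call. DESeq2 called 96 genes at an adjusted p under 0.05 and edgeR called 1. *Mag*, with 4 to 21 reads per rat, is the member that depth limits most.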
